A study of Mus musculus with 12 samples.

Results

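The genes described here are 10 transcripts of the integrated stress response: the transcription factor genes Atf4, Atf3 and Ddit3, the feedback and stress genes Trib3 and Chac1, the amino acid and one-carbon enzyme genes Asns, Psat1, Phgdh and Shmt2, and the lipoprotein receptor gene Vldlr. They were chosen by name among the 24421 genes of the deposited count table, with earlier results of these data known. All 10 were listed, and all 10 were among the 13880 genes that passed the filter on low counts. RNA came from liver without tumour of male mice of the LiKM and LiK strains, each fed ACR (0.06% of the diet) or a normal diet from 5 weeks of age and killed at 4 months, with 3 mice in each of the 4 groups. The groups were LiKM on ACR, LiKM on the normal diet, LiK on ACR and LiK on the normal diet. The labels do not spell out the strain genotypes or the name ACR. From what is known of the study, LiKM mice lack Mdm2 in hepatocytes and LiK mice do not; the driver of the recombination was not given in the sources used here. Mdm2 was counted over the whole gene, at 29.0 to 67.2 CPM (counts scaled to the TMM-adjusted library size) in the 6 LiKM libraries and 21.6 to 25.8 CPM in the 6 LiK libraries, so the counts do not check a partial deletion.

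The integrated stress response begins with kinases that sense unfolded protein, amino acid shortage, viral RNA or haem and mitochondrial stress and phosphorylate the initiation factor eIF2. General translation then falls, while translation of the Atf4 messenger RNA goes up, so ATF4 protein can change with no change in its transcript. ATF4 and its partners, among them ATF3 and CHOP (the protein of Ddit3), switch on genes for amino acid synthesis, transport and redox balance, and TRIB3 feeds back on ATF4. In liver the response is known from protein restriction, endoplasmic reticulum stress and mitochondrial disease.

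ATF4 binds DNA with C/EBP proteins at composite elements, and the promoters of the 10 genes were searched for these, because they are the sequence feature the target genes are known for. RefSeq promoters (build GRCm38.p6) were matched for 10 of 10 genes, with 12 start sites, and the 250 bases before each start were read on both strands. The letters TGATGNAA, a C/EBP-ATF composite element, were present in 4 genes (Atf3, Chac1, Asns and, at the second of its starts, Vldlr), against 3.45% of all 32851 promoter windows of the same length. The letters TGGTGCAA were present in Trib3 and Psat1, against 0.463% of all windows; this variant was searched for after the Trib3 and Psat1 sequences had been seen. The sites are shown in 30-base stretches, 5′ to 3′ on the strand of the gene, with the element in capitals; in Atf3, Chac1 and Vldlr it stands on the other strand, so its reverse complement is capitalised.
Atf3: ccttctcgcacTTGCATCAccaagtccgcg
Chac1: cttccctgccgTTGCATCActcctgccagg
Asns: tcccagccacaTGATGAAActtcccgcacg
Vldlr: agcagcaatagTTGCATCAgcgctcctagc
Trib3: cgggtcacagaTGGTGCAAtcccgggccgc
Psat1: acgcgggtggcTGGTGCAAtcccctgctct

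The Atf3 stretch lies at chr1:191183425-191183454 on the minus strand and the Chac1 stretch at chr2:119351038-119351067 on the plus strand. The Asns stretch is chr6:7693214-7693243 (minus), the Vldlr stretch chr19:27216809-27216838 (plus), the Trib3 stretch chr2:152344075-152344104 (minus) and the Psat1 stretch chr19:15925177-15925206 (minus). Counted from the RefSeq start site, the first base of the element is at -110 in Atf3, -193 in Chac1, -23 in Asns, -200 in Vldlr, -33 in Trib3 and -136 in Psat1. These starts differ from the GENCODE gene positions given below. By those positions the Atf3, Asns, Vldlr and Psat1 stretches lie inside the gene, and the Chac1 and Trib3 stretches upstream of it. The Asns window and the window of the second Vldlr start hold 45 and 179 bases of annotated exons. No window of Atf4, Ddit3, Phgdh or Shmt2 held either set of letters. A cAMP response element core, TGACGT on either strand, was present in Atf3 alone of the 10, against 6.47% of all windows, and the endoplasmic reticulum stress element in 0 of the 10, against 0.113%. These matches describe the letters only; no binding was measured.

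The libraries held 10124813 to 18647156 counts each. The first principal component of all tested genes took 45.7% of the variance and separated the LiKM from the LiK libraries. Sample identifiers began with KM in 9 libraries and with MP in 3 (LiK normal-diet mice 2 and 3 and LiKM ACR mouse 3); the labels do not say what the letters mean. Alb, the albumin gene of hepatocytes, was at 66000 to 131000 CPM. Nothing in the labels says whether mice were littermates, and the p-values measure the spread between the mice of these groups.

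Levels of the 10 genes spanned a wide range. Per kilobase of annotated exon, and averaged over the 12 libraries, Shmt2 had 59.0 CPM and Atf4 34.9 CPM. The others were far below: Trib3 had 3.83, Ddit3 3.44, Chac1 1.92, Atf3 1.59, Asns 0.996, Psat1 0.908, Phgdh 0.519 and Vldlr 0.280 CPM per kilobase. The 2 abundant genes also varied little between mice. The SD of log2 CPM over the 12 libraries was 0.21 for Atf4 and 0.28 for Shmt2, against 1.47 for Asns and 1.24 for Trib3, which stood at the 98.5th and 97.0th percentile of all tested genes.

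**Figure D1:**
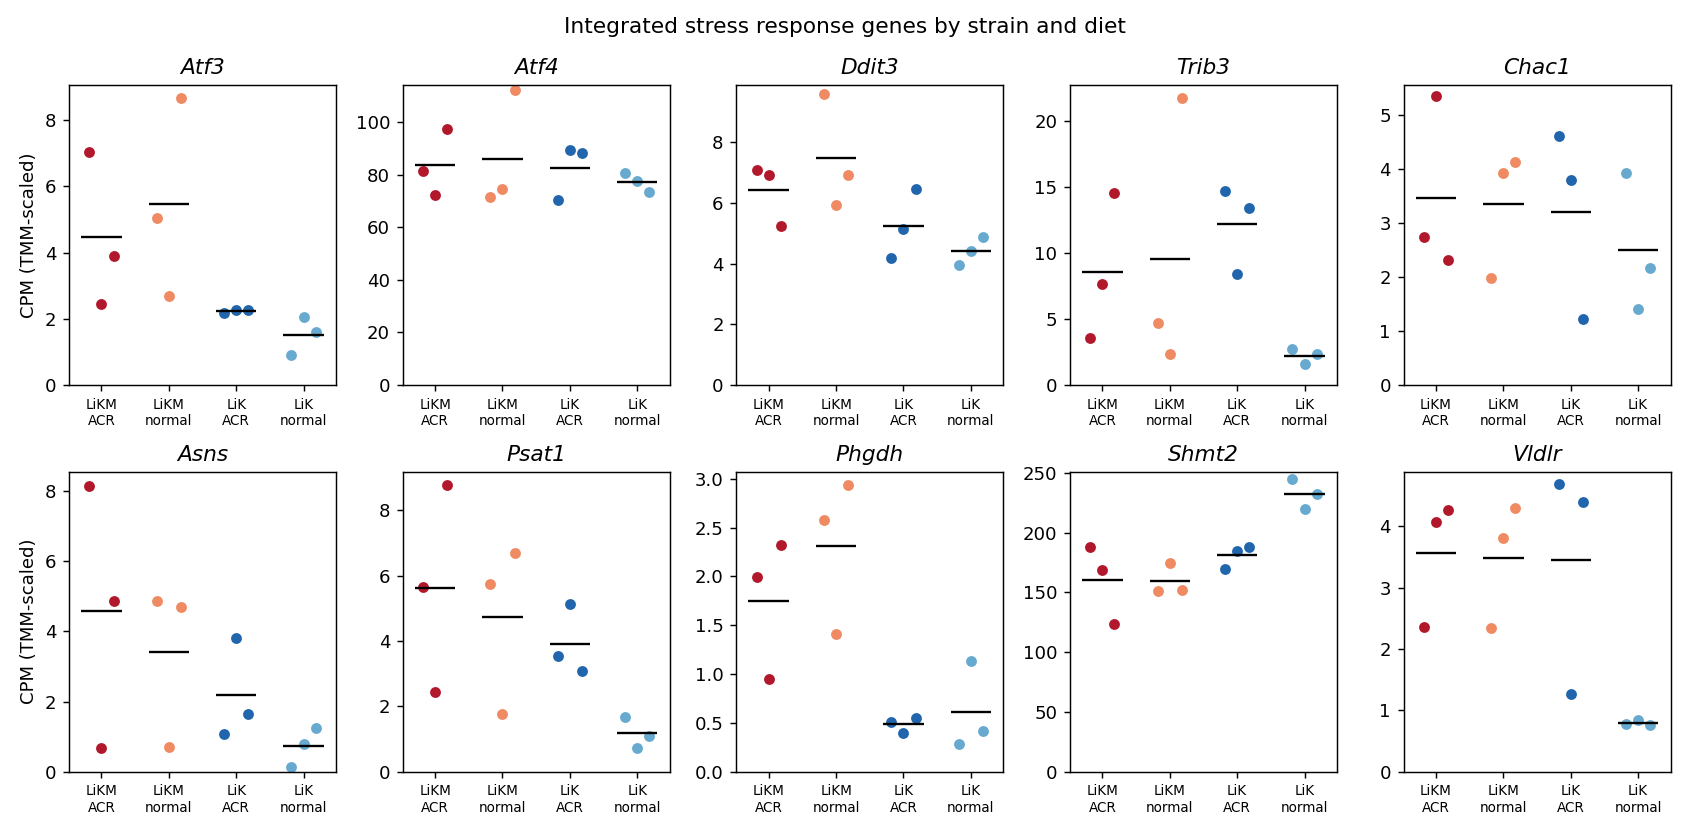
CPM (vertical axis, from 0, TMM-scaled) of each of the 10 genes in every mouse, with the groups LiKM ACR, LiKM normal, LiK ACR and LiK normal from left to right; points are mice 1 to 3 and bars are group means. Vldlr and Trib3 are low in all 3 LiK normal-diet mice, Shmt2 is highest there, and Atf4 is between 70.2 and 112 CPM in every mouse.

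Atf4, which encodes the main transcription factor of the response, lies on chromosome 15 (80255184 to 80257541, plus strand, GRCm38, as are the gene positions below). It had 81.5, 72.4 and 97.2 CPM in LiKM ACR mice 1, 2 and 3, and 71.6, 74.5 and 112 CPM in LiKM normal-diet mice. In LiK mice it had 70.2, 89.2 and 88.1 CPM on ACR and 80.6, 77.4 and 73.4 CPM on the normal diet. All 4 groups overlapped, and no neighbours in the order of their means stood apart. LiKM normal-diet mouse 3 was the highest of the 12.

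Atf3, a stress-induced factor of the same family, lies on chromosome 1 (191170296 to 191218039, minus strand). It had 7.03, 2.44 and 3.90 CPM in LiKM ACR mice and 5.04, 2.68 and 8.67 CPM in LiKM normal-diet mice. The LiK mice had 2.16, 2.26 and 2.26 CPM on ACR and 0.916, 2.04 and 1.59 CPM on the normal diet. Every LiKM mouse was above every LiK mouse. In both LiKM groups mouse 2 was the lowest, close to the LiK ACR mice.

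Ddit3, the gene for the pro-apoptotic factor CHOP, lies on chromosome 10 (127290774 to 127296288, plus strand). It had 7.09, 6.91 and 5.25 CPM in LiKM ACR mice and 9.60, 5.92 and 6.92 CPM in LiKM normal-diet mice. LiK values were 4.18, 5.13 and 6.45 CPM on ACR and 3.94, 4.41 and 4.86 CPM on the normal diet. The LiK normal-diet mice were below every LiKM mouse, and the LiK ACR mice overlapped both. Ddit3 shares 68 exon bases with Mars and 13 with Gm4189, both on the opposite strand, and 105 with a second Ddit3 entry, and its deposited value was not a whole number in 9 of 12 libraries, so its level is uncertain to that extent.

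Trib3, the pseudokinase that feeds back on ATF4, lies on chromosome 2 (152337422 to 152344032, minus strand). It had 3.55, 7.66 and 14.5 CPM in LiKM ACR mice and 4.68, 2.32 and 21.7 CPM in LiKM normal-diet mice. Among LiK mice the values were 14.7, 8.39 and 13.4 CPM on ACR and 2.75, 1.58 and 2.34 CPM on the normal diet. The LiK ACR mice were all above the LiK normal-diet mice, while each LiKM group spread from near the low end to the high end, with mouse 3 the highest of its group on both diets. The 5 highest libraries were the 3 LiK ACR mice, LiKM normal-diet mouse 3 and LiKM ACR mouse 3, and these were also the 5 libraries with negative values on the second principal component of all genes (13.9% of the variance). Dbp, an output gene of the circadian clock, was at 15.4, 3.25 and 3.54 CPM in LiKM ACR mice 1, 2 and 3 and at 8.46, 25.6 and 74.0 CPM in LiKM normal-diet mice. It was at 136 to 139 CPM in LiK ACR mice and 25.6 to 35.9 CPM in LiK normal-diet mice. The part of the clock genes in the Trib3 values was not tested.

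Chac1, which encodes a glutathione-degrading enzyme and lies on chromosome 2 (119351229 to 119354381, plus strand), had 2.74, 5.36 and 2.32 CPM in LiKM ACR mice and 1.98, 3.94 and 4.14 CPM in LiKM normal-diet mice. The LiK levels were 4.61, 3.80 and 1.23 CPM on ACR and 3.94, 1.41 and 2.18 CPM on the normal diet. The 4 groups overlapped fully.

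Asns, asparagine synthetase, lies on chromosome 6 (7675169 to 7693254, minus strand) and had 8.15, 0.678 and 4.88 CPM in LiKM ACR mice and 4.86, 0.704 and 4.69 CPM in LiKM normal-diet mice. LiK mice gave 1.08, 3.80 and 1.65 CPM on ACR and 0.141, 0.792 and 1.26 CPM on the normal diet. The 4 LiKM mice numbered 1 and 3 were above every LiK mouse, and the 2 numbered 2 were below every LiK ACR mouse and within the LiK normal-diet range. The lowest value rests on 2 counts, with a 95% Poisson interval of 0.0171 to 0.509 CPM (exact, counting error only).

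Psat1 and Phgdh encode enzymes of serine synthesis, and Phgdh catalyses its first step. Psat1 (chromosome 19, 15904678 to 15947337, minus strand) had 5.66, 2.44 and 8.78 CPM in LiKM ACR mice and 5.76, 1.76 and 6.68 CPM in LiKM normal-diet mice. For LiK mice it was 3.53, 5.13 and 3.09 CPM on ACR and 1.69, 0.736 and 1.09 CPM on the normal diet. The LiK normal-diet mice were below all others for Psat1, and LiKM mouse 2 was again the lowest of both LiKM groups. Phgdh (chromosome 3, 98313170 to 98339990, minus strand) had 1.99, 0.949 and 2.32 CPM in LiKM ACR mice and 2.58, 1.41 and 2.94 CPM in LiKM normal-diet mice. In LiK mice it had 0.505, 0.400 and 0.549 CPM on ACR and 0.282, 1.13 and 0.419 CPM on the normal diet. On each diet the LiKM mice were above the LiK mice for Phgdh, whose values rest on 4 to 43 counts per library.

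Shmt2, the mitochondrial serine hydroxymethyltransferase that feeds the folate cycle, lies on chromosome 10 (127517123 to 127522444, minus strand). It had 188, 169 and 124 CPM in LiKM ACR mice and 151, 175 and 152 CPM in LiKM normal-diet mice. In LiK mice it had 170, 185 and 188 CPM on ACR and 245, 220 and 232 CPM on the normal diet. The LiK normal-diet mice were above all 9 others. Shmt2 shares 32 exon bases with Ndufa4l2 on the opposite strand, and its value was not whole in 5 libraries.

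Vldlr, the very low density lipoprotein receptor, lies on chromosome 19 (27216484 to 27254231, plus strand). It had 2.36, 4.07 and 4.27 CPM in LiKM ACR mice and 2.34, 3.80 and 4.30 CPM in LiKM normal-diet mice. In LiK mice it had 4.69, 1.27 and 4.39 CPM on ACR and 0.775, 0.849 and 0.754 CPM on the normal diet. The LiK normal-diet mice lay close together and below all 9 others, and LiK ACR mouse 2 lay between them and the rest.

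**Figure D2:**
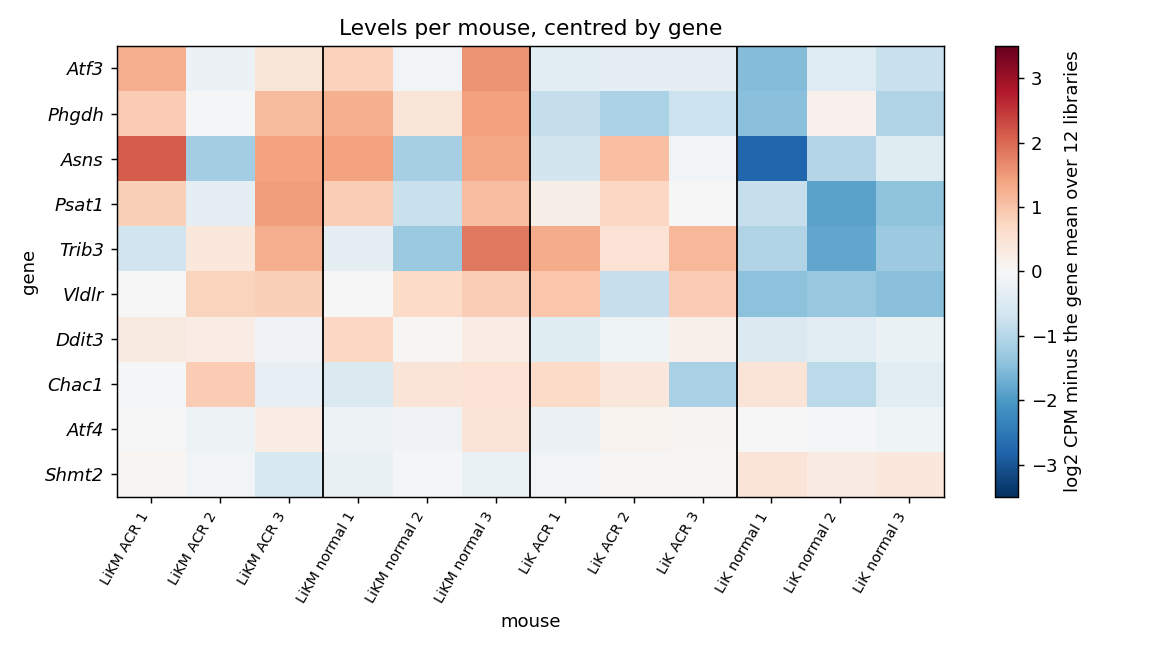
log2 CPM minus the gene's mean over 12 libraries (colour) for the 10 genes (rows) in the 12 mice (columns, grouped as LiKM ACR, LiKM normal, LiK ACR and LiK normal). Atf3 is lower in every LiK mouse than in every LiKM mouse, Psat1 and Vldlr are lowest in the 3 LiK normal-diet mice, Trib3 is low in those and in LiKM normal-diet mouse 2, and Asns is low in LiKM mouse 2 on both diets; the gene order was set with the values known.

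The strain difference on the normal diet asked how LiKM and LiK livers differ without ACR. In LiKM livers 5 of the 10 genes rose (Vldlr, Psat1, Phgdh, Atf3 and Ddit3) and 1 fell (Shmt2), at an adjusted p under 0.05 from the quasi-likelihood test of edgeR, adjusted by Benjamini-Hochberg over all 13880 genes. Of all genes, 21.8% were called in this comparison, 13.2% higher and 8.61% lower. The median log2 fold change of the 10 was 1.83, and that of all genes 0.02. Because the 10 were chosen with earlier results of these data known, these shares and medians describe the list and do not test it.

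Vldlr averaged 3.48 ± 1.02 CPM in LiKM and 0.792 ± 0.0499 CPM in LiK mice (SD, n = 3 each), 4.31-fold higher (log2 2.11, SE 0.48, adjusted p = 0.0103). Psat1 averaged 4.73 ± 2.62 and 1.17 ± 0.483 CPM in LiKM and LiK mice and was 4.06-fold higher (log2 2.02, SE 0.58, adjusted p = 0.0283). For Phgdh the means were 2.31 ± 0.802 and 0.611 ± 0.456 CPM in LiKM and LiK mice, a 3.59-fold difference (log2 1.84, SE 0.50, adjusted p = 0.0222). These 3 genes serve lipoprotein uptake and serine synthesis. Atf3 was 3.54-fold higher (log2 1.82, SE 0.48, adjusted p = 0.0192), with means of 5.46 ± 3.02 CPM in LiKM and 1.51 ± 0.565 CPM in LiK mice. Ddit3 was 1.70-fold higher (log2 0.77, SE 0.23, adjusted p = 0.0326), with means of 7.48 ± 1.90 CPM in LiKM and 4.41 ± 0.456 CPM in LiK mice. In each of these 5 genes all 3 LiKM mice were above all 3 LiK mice, as were 20.7% of all genes. Shmt2 fell by 0.55 on the log2 scale (SE 0.14, adjusted p = 0.0182), with 159 ± 13.7 CPM in LiKM and 233 ± 12.5 CPM in LiK mice and no overlap, as in 19.4% of all genes.

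The remaining 4 genes were not called. Asns had a log2 difference of 2.25 (95% interval 0.04 to 4.45, adjusted p = 0.131) and Trib3 of 2.10 (0.35 to 3.84, adjusted p = 0.0818), both with overlapping groups; by DESeq2 both passed, at adjusted p = 0.0451 and 0.00989, and Trib3 also passed without LiKM normal-diet mouse 2 (adjusted p = 0.0318) and with the replicate block within LiKM (adjusted p = 0.0258). Without LiKM normal-diet mouse 3, the mouse with 21.7 CPM, the Trib3 difference was 0.65 (adjusted p = 0.476). Chac1 differed by 0.41 (-0.74 to 1.57, adjusted p = 0.613) and Atf4 by 0.16 (-0.22 to 0.54, adjusted p = 0.549).

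The calls depend on single mice. Leaving out 1 library at a time left 2 to 7 of the 10 genes called, and 2 without LiKM normal-diet mouse 1, LiKM normal-diet mouse 3, LiK normal-diet mouse 1 or LiK normal-diet mouse 3. Without one of these or LiK normal-diet mouse 2, adjusted p reached 0.0774 for Atf3, 0.123 for Ddit3, 0.0919 for Psat1, 0.0823 for Phgdh and 0.0646 for Shmt2, while Vldlr passed in all 12 such fits; the 7 calls arose without LiKM normal-diet mouse 2, where Trib3 joined. Ddit3 lost its call in 10 of 22 alternatives, among them the replicate block over all libraries (adjusted p = 0.0511). With library size alone as the scale, the median of all genes moved to 0.40, 97.6% of 4831 called genes were higher against 60.6% here, and Shmt2 had a log2 difference of -0.16 (adjusted p = 0.295). The LiKM normal-diet libraries all have KM identifiers, while LiK normal-diet mice 2 and 3 have MP, so the letters partly go with the strain. With the letters as covariate 5 of the 10 were called, and Ddit3 lost its call (log2 0.69, adjusted p = 0.113). In the 9 KM libraries 1 LiK normal-diet mouse remains and is assumed to vary like the other groups. There the log2 differences of the 5 higher genes lay between 0.92 and 2.99, and that of Shmt2 was -0.63.

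Markers of several cell types differed between the strains on the normal diet, where 13.2% of all genes were called higher and 8.61% lower. All 14 tested biliary and progenitor markers rose in LiKM normal-diet mice, with a summed level of 682 to 1130 CPM against 57.1 to 72.7 CPM in LiK normal-diet mice. Krt19 was at 8.88 to 11.5 CPM in LiKM and 0.352 to 0.670 CPM in LiK mice. Hepatocyte markers fell in 6 of 19 (2, with 1 higher, by library size alone), with sums of 111000 to 129000 CPM in LiKM and 149000 to 199000 CPM in LiK mice. Of T and NK cell markers 7 of 10 rose and 1 fell (summed level 8.95 to 17.5 CPM in LiKM and 6.07 to 7.70 CPM in LiK mice), and of macrophage markers 5 of 15 rose (325 to 593 CPM in LiKM and 217 to 442 CPM in LiK mice). Neutrophil markers rose in 3 of 4 (10.9 to 13.9 CPM in LiKM and 2.36 to 5.52 CPM in LiK mice) and stellate cell markers in 4 of 13. Endothelial markers rose in 2 of 12, which is near the share of all genes. Of 18 clock genes, 0 were called by edgeR or DESeq2 or had an unadjusted p under 0.05. Their log2 differences were above 0 in 5 of 18 (median -0.24). Their summed level was 896 to 1030 CPM in LiKM and 1170 to 1280 CPM in LiK mice, without overlap. Targets of p53 rose in 11 of 20 (Cdkn1a at 15.1 to 86.6 CPM in LiKM and 3.62 to 6.97 CPM in LiK mice), and immediate early genes, which handling of tissue can raise, in 5 of 17. In bulk tissue, fewer cells of a type and less RNA per cell cannot be told apart, and the part of these shifts in the stress gene changes was not tested.

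**Figure D3:**
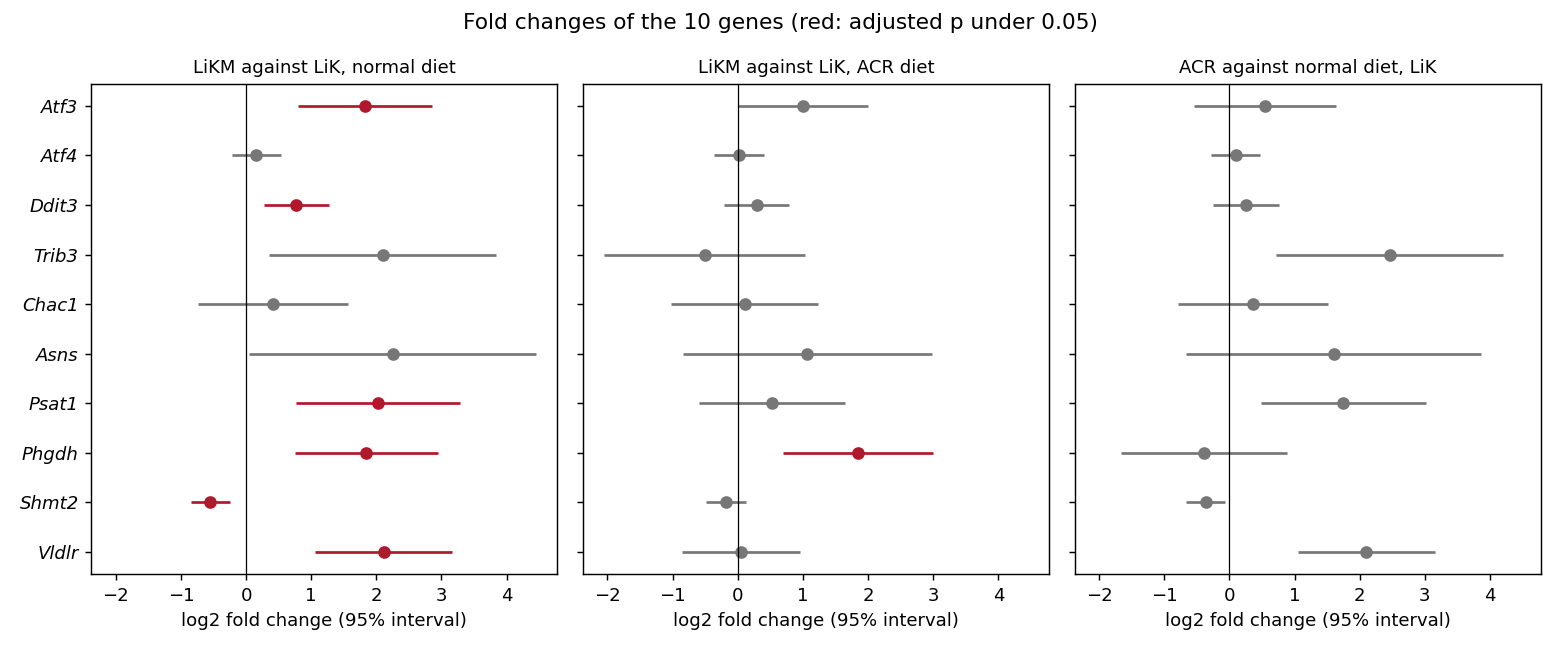
log2 fold changes (horizontal axis) with 95% intervals of the 10 genes in 3 panels: the strain difference on the normal diet, the strain difference under ACR, and the diet difference in LiK; red marks an adjusted p under 0.05. On the normal diet 6 genes are red, on ACR Phgdh alone, and in LiK no gene, although the intervals of Trib3, Psat1, Shmt2 and Vldlr leave out 0.

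Under ACR the strain difference was narrower in number. Phgdh was the 1 gene of the 10 called, 3.59-fold higher in LiKM mice (1.75 ± 0.715 CPM) than in LiK mice (0.484 ± 0.0767 CPM; log2 1.85, SE 0.53, adjusted p = 0.0465), against 9.79% of all genes called, 5.55% higher and 4.24% lower. Phgdh lost this call in 12 of 22 alternatives, among them without LiKM ACR mouse 1 or 3, without any 1 of the LiK ACR mice, and without LiKM normal-diet mouse 1 or LiK normal-diet mouse 3 (adjusted p up to 0.156), and with the replicate block over all libraries (adjusted p = 0.0643). Atf3 was also higher in all 3 LiKM mice (4.46 ± 2.34 CPM, against 2.23 ± 0.0581 CPM in LiK mice), with a log2 difference of 1.00 (95% interval 0.00 to 2.00, adjusted p = 0.181; 0.51 without LiKM ACR mouse 1); 17.2% of all genes were higher with no overlap. Vldlr averaged 3.57 ± 1.05 and 3.45 ± 1.90 CPM in LiKM and LiK mice (log2 difference 0.05, interval -0.85 to 0.95), and Shmt2 160 ± 33.0 CPM in LiKM and 181 ± 9.59 CPM in LiK mice (-0.18, interval -0.48 to 0.13). Trib3 had a log2 difference of -0.50 (-2.05 to 1.04), Asns of 1.07 (-0.84 to 2.98) and Psat1 of 0.53 (-0.59 to 1.64). Ddit3 differed by 0.29, Chac1 by 0.11 and Atf4 by 0.02, with adjusted p of 0.443 to 0.954. On this diet 13 of 14 biliary markers rose (374 to 579 CPM in LiKM and 54.8 to 214 CPM in LiK mice), 1 of 19 hepatocyte markers fell, and 5 of 15 macrophage, 3 of 10 T and NK cell, 3 of 4 neutrophil and 1 of 13 stellate cell markers rose. Endothelial markers had 0 of 12 called by edgeR, 1 with an unadjusted p under 0.05 and 0 by DESeq2. Immediate early genes rose in 3 of 17, 16 of 20 p53 targets rose, and 3 of 18 clock genes rose while 4 fell; the part of these in the Phgdh difference was not tested.

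ACR against the normal diet in LiK livers asked what the diet does in the strain with Mdm2. None of the 10 genes was called by edgeR, where 27 genes were (0.195%; 0.13% higher and 0.0648% lower); 4 of the 10 had an unadjusted p under 0.05, as did 14.1% of all genes, and DESeq2 called 2 (Vldlr and Trib3). Vldlr averaged 3.45 ± 1.90 CPM on ACR and 0.792 ± 0.0499 CPM on the normal diet (log2 2.10, 95% interval 1.05 to 3.15, adjusted p = 0.103). Trib3 averaged 12.2 ± 3.34 CPM on ACR and 2.23 ± 0.591 CPM on the normal diet (log2 2.46, interval 0.72 to 4.20, adjusted p = 0.210). For Psat1 the means were 3.92 ± 1.07 and 1.17 ± 0.483 CPM on ACR and the normal diet (log2 1.75, interval 0.48 to 3.02, adjusted p = 0.216). In these 3 genes and in Atf3 (log2 0.54, -0.54 to 1.63) every ACR mouse was above every normal-diet mouse, as in 13.4% of all genes, and Shmt2 was lower without overlap (-0.36, interval -0.67 to -0.06, adjusted p = 0.283), as in 14.6%.

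Whether these differences pass depends on how the spread is estimated. With the LiKM numbers as a block, 701 genes were called and Trib3 (adjusted p = 0.0167), Psat1 (0.0123) and Vldlr (0.0220) passed. The labels give no such pairing, which was read from these same data. In LiK mice the block cancels no mouse difference and only takes LiKM spread out of the shared error. With the 6 LiK libraries alone, 812 genes and 4 of the 10 passed, Trib3 at adjusted p = 0.00361, Psat1 at 0.0253, Shmt2 at 0.0334 and Vldlr at 0.0472. Without LiK ACR mouse 2, the mouse low in Vldlr, Vldlr passed (adjusted p = 0.0370). All 3 ACR libraries have KM identifiers and 2 of the 3 normal-diet libraries MP, and with the KM libraries alone the log2 differences were 2.13 for Vldlr, 2.14 for Trib3 and 1.21 for Psat1, with 1 normal-diet mouse and adjusted p of 0.428 to 0.618. Asns (log2 1.60), Phgdh (-0.39), Chac1 (0.36), Ddit3 (0.26) and Atf4 (0.10) had intervals that include 0. Of 18 clock genes, 0 were called by edgeR, 9 had an unadjusted p under 0.05 and 3 were called by DESeq2; their part in the differences of Trib3, Psat1 and Vldlr was not tested.

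In LiKM livers no difference between ACR and the normal diet was called. By edgeR 0 of the 10 genes passed, as did 0% of all genes. An unadjusted p under 0.05 was reached by 1005 genes (7.24%) and 0 of the 10, and DESeq2 called 79 genes and 0 of the 10. The replicate block within LiKM called 9 genes and 0 of the 10. Log2 differences ran from -0.39 for Phgdh to 0.42 for Asns. For Vldlr the difference was 0.04 (95% interval -0.86 to 0.95), for Shmt2 0.01 (-0.30 to 0.32), for Atf3 -0.28 (-1.23 to 0.67), for Psat1 0.26 (-0.84 to 1.35) and for Trib3 -0.14 (-1.70 to 1.42). The groups overlapped for all 10, while 3.94% of all genes were higher and 6.7% lower on ACR without overlap. Intervals for Trib3, Asns and Chac1 (-1.07 to 1.18) leave room for changes of more than 1 on the log2 scale either way. Those for Atf3, Phgdh (-1.37 to 0.59) and Psat1 do so on 1 side.

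The difference of the diet effects, LiKM minus LiK, tests whether the strains respond unlike. None of the 10 was called by edgeR (1 gene of all, 0.0072%; 2 of the 10 and 11.5% of all genes at an unadjusted p under 0.05, 0 of the 10 by DESeq2). Vldlr had a difference of -2.06 (95% interval -3.44 to -0.67, adjusted p = 0.287), Trib3 of -2.60 (-4.93 to -0.27, adjusted p = 0.394; -1.17 without LiKM normal-diet mouse 3) and Psat1 of -1.50 (-3.18 to 0.19, adjusted p = 0.485). Shmt2 had 0.37 (-0.06 to 0.80, adjusted p = 0.500). The replicate block within LiKM raised the genes called to 260, with 0 of the 10 among them. The 2 strain comparisons and the 2 diet comparisons share groups: the LiK normal-diet mice enter both the strain difference on the normal diet and the diet difference in LiK, so the like values of Vldlr in those comparisons (2.11 and 2.10) are not independent of each other.

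The wider pathway was read from 7 lists holding 122 distinct tested genes, chosen with earlier results of these data known. On the normal diet 36 (29.5%) were called between LiKM and LiK, against 21.8% of all genes. On ACR 8 (6.56%) were called, against 9.79% of all genes. The normal-diet share pools both directions. Rises were confined to the ATF4 and CHOP targets, the VLDL receptor partners (3 of 10) and 1 one-carbon enzyme. Falls included 9 of 20 one-carbon enzymes and 5 of 12 mitochondrial genes, and these falls rest on the scaling, as given below. Of 28 other ATF4 and CHOP targets, 10 rose and 2 fell in LiKM on the normal diet (median log2 0.50, against 0.02 for all genes). Tnfrsf10b, a death receptor gene that is also a p53 target, was at 3.93 ± 1.89 CPM in LiKM and 0.985 ± 0.124 CPM in LiK mice (log2 2.00, SE 0.38). Aldh18a1, for proline synthesis, rose by 1.96 (SE 0.41), and Xpot, which exports transfer RNA from the nucleus, fell by 0.47 (SE 0.11). The count of 12 was 6 without LiKM normal-diet mouse 3, 5, 6 and 7 without LiK normal-diet mice 1, 2 and 3, and 4 with the KM libraries alone. With library size alone 14 rose and 0 fell. On ACR 3 of the 28 rose (median 0.13): Tnfrsf10b (2.30), the cystine transporter gene Slc7a11 (1.95) and the serine synthesis gene Psph (0.78). That count was 1 without LiKM ACR mouse 1, without any 1 of the LiK ACR mice, or without LiK normal-diet mouse 3, 6 with DESeq2, and 7 (6 higher, 1 lower) with the replicate block within LiKM.

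The serine and one-carbon enzymes that were called fell, with 1 exception, under TMM scaling. Of 20 on the normal diet, 9 fell and 1 rose in LiKM (median log2 -0.35). Mthfd1, the cytosolic folate enzyme, had 156 ± 20.7 CPM in LiKM and 238 ± 5.05 CPM in LiK mice (log2 -0.61). Dmgdh, of choline breakdown, fell by 0.89 and Dld, of the glycine cleavage system and other dehydrogenases, by 0.43. The gene that rose was Mthfd2, the mitochondrial folate enzyme and an ATF4 target (log2 1.54), listed among the ATF4 targets too and named as the 1 exception after its value was seen. The count of 10 was 5 without LiKM normal-diet mouse 1 or 3 or LiK normal-diet mouse 3, 4 without LiK normal-diet mouse 1, and 1 with the KM libraries alone. The direction rests on the scaling: with library size alone 5 of the 20 rose and 2 fell. Shmt2 and these enzymes are abundant in hepatocytes, 6 of whose 19 markers fell in the same livers; the part of this in their levels was not tested. On ACR 2 of the 20 rose, Psph among them, and 0 fell; the count was 0 without LiK ACR mouse 1 or 2, and 1 without LiK ACR mouse 3 or LiK normal-diet mouse 1 or 3. It was 5 with DESeq2 (4 higher, 1 lower) and 8 with the replicate block within LiKM (3 higher, 5 lower).

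In other arms of the stress response 0 genes rose on the normal diet apart from VLDL receptor partners, against 13.2% of all genes higher and 8.61% lower; the few falls among endoplasmic reticulum, synthetase and eIF2 genes (1 or 2 a list) are near that background. On the normal diet, 5 of 12 mitochondrial chaperones and proteases fell in LiKM (Trap1 by 0.43, Afg3l2 by 0.51 and Hspa9 by 0.52; median -0.29) and 0 rose. Of 14 eIF2 kinases, phosphatase subunits and eIF2B genes, Eif2ak1 fell by 0.38 and Ppp1r15b by 0.58. Eif2ak1 encodes the haem-regulated kinase and Ppp1r15b the constitutive phosphatase subunit. Of 20 ATF6 and XBP1 genes of the endoplasmic reticulum, the sensor genes Atf6 and Ern1 fell by 0.37 and 0.58, with a list median of 0.33, and of 20 cytosolic tRNA synthetases Dars fell by 0.41. These falls too rest on the scaling: with library size alone 0 genes fell in these 4 lists, while 6 eIF2, 11 endoplasmic reticulum, 8 synthetase and 0 mitochondrial genes rose. They also rest on single mice. The 5 mitochondrial calls were 2 without LiK normal-diet mouse 1, the 2 eIF2 calls were 1 without LiKM normal-diet mouse 3 or LiK normal-diet mouse 2 or 3, and the synthetase call was lost without LiKM normal-diet mouse 3 or LiK normal-diet mouse 1 or 3. The 2 endoplasmic reticulum calls were 6 without LiKM normal-diet mouse 2 (4 higher, 2 lower), and 1 without LiKM normal-diet mouse 3, any 1 LiK normal-diet mouse or LiK ACR mouse 3. By DESeq2 the endoplasmic reticulum calls were 4 (2 higher, 2 lower) and the synthetase calls 2, and with the replicate block within LiKM the eIF2 and synthetase calls were 4 each (0 and 1 higher) and the endoplasmic reticulum calls 4 (2 higher). With the 6 normal-diet libraries alone, 1 mitochondrial, 1 eIF2 and 0 endoplasmic reticulum or synthetase genes were called. The 5 called VLDL receptor partners and relatives split 3 to 2: the heparan sulphate proteoglycan gene Hspg2 rose by 1.15, the adaptor gene Dab1 by 2.78 and the sorting receptor gene Sort1 by 1.10. Their count was 2 or 3 without LiKM normal-diet mouse 1 or 3, LiK normal-diet mouse 1 or 3, or LiK ACR mouse 2. On ACR, Tars (1.18), a threonyl-tRNA synthetase gene, and Clpx (1.73), of the mitochondrial protease, rose in LiKM, while Atf6 (-0.47) fell. The mitochondrial call was lost without LiK ACR mouse 1 or 2. Of the 14 eIF2 genes 0 were called by edgeR on ACR, 1 had an unadjusted p under 0.05 and DESeq2 called 1.

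**Figure D4:**
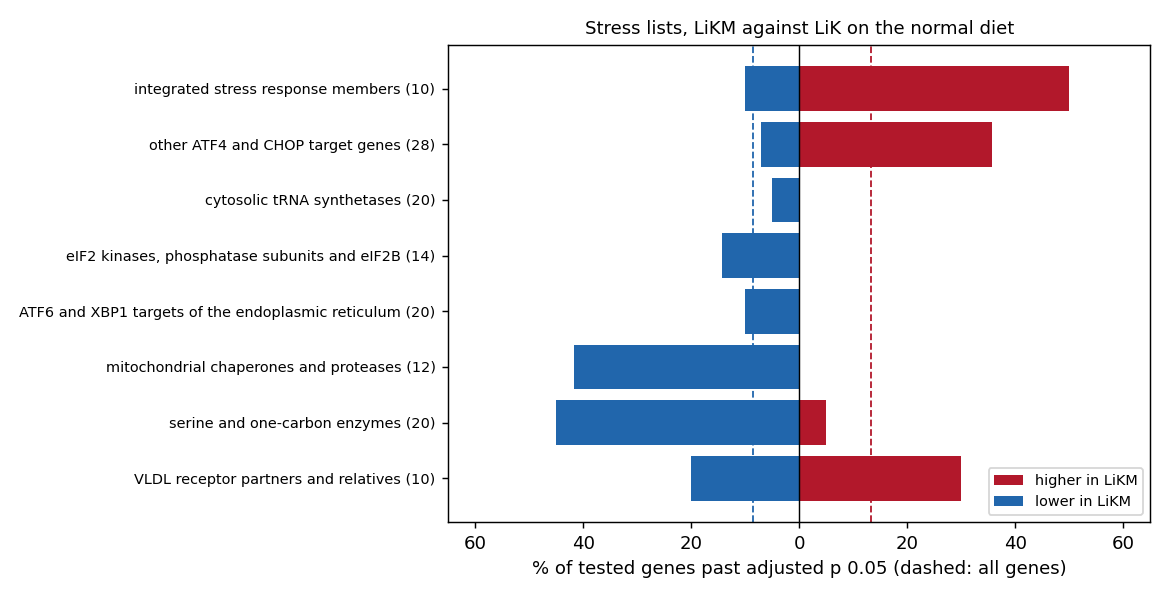
Percent of tested genes past an adjusted p of 0.05, higher (right, red) and lower (left, blue) in LiKM than in LiK mice on the normal diet, for the 10 genes and 7 related lists with the number tested in brackets; dashed lines are the shares over all genes, 13.2% higher and 8.61% lower. The genes and lists were chosen with earlier results of these data known. The 10 genes, the other ATF4 and CHOP targets and the VLDL receptor partners (3 of 10) reach past the higher line. Past the lower line reach the one-carbon enzymes, mitochondrial chaperones, VLDL receptor partners (2 of 10), eIF2 genes (2 of 14), endoplasmic reticulum genes (2 of 20) and the 10 genes themselves (1 of 10); with library size alone 2 of 20 one-carbon enzymes and 0 of 12 mitochondrial genes were lower.

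Between the diets in LiK mice, 1 of the 122 genes was called by edgeR. Dab1, whose protein binds the tail of the VLDL receptor, was at 7.23 ± 4.25 CPM on ACR and 0.529 ± 0.374 CPM on the normal diet (log2 3.80, SE 0.55, adjusted p = 0.0200). With 1 library left out, 0 to 108 genes were called here, so this call was lost in at least 1 such fit. The same low LiK normal-diet mice are the reference of its strain difference (log2 2.78), so the 2 rises are not independent. Of the other ATF4 and CHOP targets 0 were called, 4 had an unadjusted p under 0.05 and DESeq2 called 2. In LiKM mice 0 of the 122 were called by edgeR, and DESeq2 called 0 in any of the 7 lists; unadjusted p under 0.05 numbered 0 to 2 a list.

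Genes outside the list with the most similar pattern were taken as the nearest by mean absolute difference of centred log2 CPM over the 12 libraries, among 9741 genes with a mean of at least 5 CPM. For Atf3 these were Adam15 (0.33) and Tubb6 (0.34), and for Phgdh Anxa2 and Sh3pxd2b (both 0.31). Psat1 was nearest to Cd9 (0.38) and Ptpre (0.44), and Vldlr to Psd4 (0.41) and Pfkp (0.42). Ddit3 was nearest to Myo7a (0.10) and BC037034 (0.11), and Shmt2 to Glyctk (0.06) and Adh5 (0.07). Among the 10 themselves, Atf4 and Shmt2 had the smallest difference from each other (0.29), but their group means ran in reversed order. The LiK normal-diet group was lowest for Atf4 and highest for Shmt2, and both genes varied little (SD 0.21 and 0.28). Atf3 and Phgdh were also nearest to each other (0.40). Trib3 differed by 0.66 from Vldlr and by 0.66 from Psat1. Genes that vary little have small differences by construction, also as partners of another gene. The values therefore do not compare between genes, and a small value alone does not show a like direction.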

How the data were processed

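The authors deposited 1 table of gene counts from total RNA with a stranded mRNA kit (TruSeq, per the labels); per the submitters' processing notes it was made with featureCounts 2.0.0 on mm10, while aligner, annotation and shared-read options were not given in the sources used here. Of the deposited values above 0, 18.9% are not whole (tolerance 1e-09), so they were treated as estimated counts and rounded. Groups came from the sample titles. Tests used edgeR 4.0.16 (R 4.3.3, limma 3.58.1): TMM scaling (factors 0.83 to 1.24), filterByExpr, a robust quasi-likelihood fit with 1 coefficient per group over 12 libraries (common BCV 0.203), 5 contrasts, Benjamini-Hochberg adjustment over 13880 genes and a threshold of 0.05. The fit was also run on simulated independent counts with changes set in the LiKM normal-diet group only, a simpler setting than these data. The outcome is not given here, and no result rests on it. CPM uses TMM-scaled library sizes. Alternatives included DESeq2 1.42.0. The members and lists were chosen with earlier results of these data known. The text names all 10 members, up to 3 genes of smallest p per list, and the 2 nearest genes of each called member; other names are marked. Sample numbers are those of the titles. Same-numbered LiKM mice on the 2 diets deviated together from their group means (r = 0.37, 0.22 and 0.48), which is the only source of a pairing, while other pairs gave -0.10 to 0.077. Replicates differed by more than counting noise (chi-square divided by degrees of freedom, 16.7 to 69.2), so none was counted as a repeat. Gene positions are from GENCODE M21 and promoters from RefSeq. Some named genes and an allele are not reported here.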

Additional observations from a re-analysis of the deposited data

How the results depend on the processing

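Over the log2 differences of the 10 genes in 5 comparisons, 1089 alternative values were computed. Of these, 956 kept their direction and side of the threshold, 40 lost a call, 17 gained one and 76 changed sign (4, 15, 36, 5 and 16 in the order normal-diet strain, ACR strain, LiKM diet, LiK diet and difference of diet effects). Causes were not tested except where fewer libraries enter.

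Strain on the normal diet (3031 genes and 6 of the 10 called): 4831 genes with library size alone, 1038 genes and 2 of the 10 with the KM libraries (chosen after seeing the data), and 1658 to 3384 genes and 2 to 7 of the 10 with 1 library left out. Atf4 ran from -0.10 to 0.27 with 1 library left out and was -0.10 without the 3 LiKM libraries whose clock genes stand apart (normal-diet mouse 3 and ACR mice 2 and 3). Without those 3 libraries edgeR called 4 of the 10. Ddit3 (adjusted p = 0.0501) and Phgdh (adjusted p = 0.0542) lost their calls. Chac1 was -0.14 with the identifier letters as covariate and -0.26 with the KM libraries.

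Strain on ACR (1359 genes, 1 of the 10): 2150 genes with DESeq2, 555 without the 3 clock libraries, 535 with the KM libraries, and 312 to 1695 with 1 library left out. Of the 10, 0 were called with library size alone, without the clock libraries, with the covariate, with the replicate block and with the KM libraries, and 0 to 1 with 1 library left out. With library size alone 77.9% of called genes were higher. Left-out ranges were -0.35 to 0.45 for Chac1, -0.35 to 0.33 for Vldlr and -0.10 to 0.11 for Atf4. Without the clock libraries Chac1 was -0.24, Vldlr -0.55, Atf4 -0.03 and Shmt2 0.04; with the covariate Vldlr was -0.06 and Atf4 -0.02; with the KM libraries both were -0.10.

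Diet in LiKM (0 genes): 79 with DESeq2, 1 without the clock libraries and 0 to 5 with 1 library left out. Diet in LiK (27 genes, 0 of the 10): 397 genes and 2 of the 10 with DESeq2, 624 and 2 without the clock libraries, 812 and 4 with these groups alone, 16 genes with the covariate, 0 with the KM libraries, and 0 to 108 genes and 0 to 1 of the 10 with 1 library left out. Difference of diet effects (1 gene): 16 with library size alone, 2 with no filter, 160 with DESeq2, 15 without the clock libraries, 0 with the covariate or the KM libraries, and 0 to 20 with 1 library left out. Library size alone moved the all-gene median to 0.14, -0.16, 0.13 and -0.29 in the last 4 comparisons.

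With a replicate block over all libraries, 2 genes were called for the difference of diet effects. Replicate numbers paired LiKM mice only; the block within LiKM called 2473 genes on ACR, 9 for diet in LiKM, 701 and 3 of the 10 for diet in LiK, and 260 for the difference. In the strain comparisons and in LiK it cancels no mouse difference and only takes spread between the numbers out of the error.

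Uncalled values near 0 changed sign most. For diet in LiKM the values of opposite sign lay between -0.36 and -0.06 for Vldlr, -0.15 and -0.01 for Shmt2, -0.40 and -0.01 for Chac1, 0.02 and 1.29 for Trib3, 0.01 and 0.87 for Atf3, 0.05 and 0.20 for Atf4, -0.21 and -0.14 for Psat1, and -0.29 and -0.06 for Asns. In LiK they were 0.30 to 0.76 for Phgdh and -0.30 to -0.19 for Chac1, and for the difference of diet effects 0.33 for Atf3, 0.08 to 0.11 for Atf4, 0.04 to 0.58 for Chac1 and -1.40 to -0.01 for Phgdh, so no direction is claimed there. Low counts limit Asns (as low as 2), Phgdh (4) and Vldlr (9).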
